A study of Mus musculus with 12 samples.

Results

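The 84 nuclear genes described here carry the names of subunits of the 5 complexes of oxidative phosphorylation. They were taken by symbol from the 24054 genes of the count files: 37 of complex I (Nduf genes), 4 of complex II (Sdha, Sdhb, Sdhc and Sdhd), 8 of complex III (Uqcr genes), 18 of complex IV (Cox4 to Cox8 genes) and 17 of complex V (Atp5 genes). Enough reads for a test were held by 79 of them, among 14860 tested genes in all. The untested 5 were Ndufs5, Cox7b2 and Cox8c, which are listed at 0 reads in every library, and Cox6a2 and Cox8b, with 44 and 93 reads over all libraries. Reads that map to several loci were not counted, so a gene with near-identical copies can be listed at 0 without being silent. Whether this bears on Ndufs5, or on Atp5l with 784 reads in all, was not tested.

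Complexes I and II pass electrons from NADH and succinate to coenzyme Q, complex III passes them on to cytochrome c, and complex IV hands them to oxygen. Complexes I, III and IV pump protons across the inner mitochondrial membrane, and complex V, the ATP synthase, uses the return flow to make ATP. Differentiated colonocytes are known for burning butyrate from the gut flora through this chain. The subunits made in the mitochondrion itself have no row in the files and were not analysed here. Symbols that match by name do not all encode classical subunits: Ndufa4 is now counted with complex IV and Ndufa4l2 is its relative, Cox7a2l is an assembly factor of respiratory supercomplexes, and Atp5s and Atp5sl encode related proteins that are not parts of the ATP synthase. The complex III subunit Cyc1 carries another kind of name and is described with the related lists.

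RNA came from tissue of NSG mice, an immunodeficient strain, in 3 groups of 4 libraries. BTPRZ-T was tumour of the genotype BrafV600E;Tgfbr2-/- that also lacked Rnf43, Znrf3 and p16 Ink4a. BT-T was tumour of the genotype BrafV600E;Tgfbr2-/- without those further losses. N was wild type normal colon. Tumours grew from engrafted, gene-edited colonic organoids, so the tumour libraries hold host stroma beside edited epithelium. Whether each library stands for its own animal is not given in the labels, so p-values measure the spread between these libraries, which may be technical in part. In such bulk tissue, fewer cells of a type and less RNA per cell cannot be told apart.

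Reads in genes came to 15732004 to 21160052 in BTPRZ-T, 18811457 to 26052772 in BT-T and 16478975 to 19191146 in N. N replicate 2 stood apart from the rest of its group. The 84 genes took 3.47% of its gene reads, against 1.00 to 1.15% in N replicates 1, 3 and 4, and ribosomal protein genes took 10.8%, against 1.56 to 1.91%. Relative to the average of all 12 libraries, levels in that library fell by 0.81 log2 units per doubling of transcript length, where the other N libraries had slopes of 0.19 to 0.29. These relative slopes ran from -0.48 to 0.05 in BTPRZ-T and from 0.05 to 0.30 in BT-T. Subunit transcripts are short (371 to 3171 nt, median 861 nt), so the comparisons below are given with all 12 libraries and without N replicate 2. Without that library, 15045 genes were tested, the same 79 subunit genes among them.

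Promoter sequences from RefSeq (GRCm38.p6) were at hand for 66 of the 84 genes. Printed here are 5, for the genes on which the results below on isoforms, complex II and Cox7a2l transcripts turn. Atp5g1, Atp5g2 and Atp5g3 encode the same mature c subunit of the ATP synthase rotor with different import signals, Sdha encodes the flavoprotein of complex II, and Cox7a2l is the assembly factor named above. Each run holds the 250 bases before the RefSeq transcript start, read 5' to 3' on the gene's strand. The RefSeq starts of Cox7a2l, Atp5g2 and Sdha lie inside their GENCODE gene spans, so for these genes the window precedes an internal start. In Sdha only the last bases of the window, with the NRF1 match at its end, lie inside that span. Capitals mark matches on either strand to the binding motif of NRF1, a transcription factor known for respiratory chain genes, searched as GCGC, any base and TGCGC in a row. The positions are chr11:96075632-96075881 (minus strand) for Atp5g1, chr15:102671048-102671297 (minus) for Atp5g2, chr2:73911327-73911576 (minus) for Atp5g3, chr13:74350241-74350490 (minus) for Sdha and chr17:83514334-83514583 (minus) for Cox7a2l.
Atp5g1: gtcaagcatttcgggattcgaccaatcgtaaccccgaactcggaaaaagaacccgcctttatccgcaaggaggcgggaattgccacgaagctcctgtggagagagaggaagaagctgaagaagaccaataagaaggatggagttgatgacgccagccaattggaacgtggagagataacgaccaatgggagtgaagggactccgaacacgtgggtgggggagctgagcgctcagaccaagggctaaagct
Atp5g2: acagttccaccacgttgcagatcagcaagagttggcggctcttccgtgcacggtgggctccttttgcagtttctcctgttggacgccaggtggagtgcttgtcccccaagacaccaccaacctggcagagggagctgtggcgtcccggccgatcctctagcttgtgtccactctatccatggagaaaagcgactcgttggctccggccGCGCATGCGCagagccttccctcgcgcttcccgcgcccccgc
Atp5g3: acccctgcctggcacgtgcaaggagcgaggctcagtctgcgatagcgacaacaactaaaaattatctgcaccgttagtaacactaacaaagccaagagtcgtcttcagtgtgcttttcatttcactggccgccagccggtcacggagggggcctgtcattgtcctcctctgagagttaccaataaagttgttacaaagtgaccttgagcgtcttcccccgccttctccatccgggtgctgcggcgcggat
Sdha: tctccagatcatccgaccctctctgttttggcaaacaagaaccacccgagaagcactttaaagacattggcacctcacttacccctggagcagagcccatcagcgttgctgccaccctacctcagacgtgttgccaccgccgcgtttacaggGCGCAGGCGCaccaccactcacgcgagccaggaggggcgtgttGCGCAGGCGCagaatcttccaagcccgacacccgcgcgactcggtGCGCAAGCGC
Cox7a2l: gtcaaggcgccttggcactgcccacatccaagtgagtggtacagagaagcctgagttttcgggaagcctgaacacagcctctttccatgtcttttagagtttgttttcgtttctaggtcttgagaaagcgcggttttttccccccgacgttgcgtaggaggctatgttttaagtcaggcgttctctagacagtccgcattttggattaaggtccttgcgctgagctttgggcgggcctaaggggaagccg
Sdha held 3 matches and Atp5g2 held 1, and the other runs held none. Over the 66 promoters, 13 (19.7%) held an NRF1 match in this window, against 8.26% of the 11132 tested genes with a promoter and 4.23% of all 27025 promoters. The motif CCGGAAG of ETS factors such as GABPA, which can share at most 1 base with an NRF1 match, was found in 12 (18.2%), against 14.1% and 7.83%. A match is a description of the letters and not a bound site.

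Per kilobase of transcript, the most abundant of the transcripts in N replicates 1, 3 and 4 were those of the catalytic ATP synthase subunits and of complex IV. Atp5b, the beta subunit, averaged 868 CPM per kb there, Cox6a1, a complex IV subunit, 685 CPM per kb and Atp5a1, the alpha subunit, 606 CPM per kb. Complex V genes took 34.0 to 40.6% of the subunit reads in BTPRZ-T, 42.3 to 44.8% in BT-T and 43.0 to 43.9% in N replicates 1, 3 and 4. Complex I genes took 23.2 to 25.9% in BTPRZ-T, 21 to 22.4% in BT-T and 20.1 to 20.2% in those N libraries. Complex II genes took 5.59 to 7.19%, 7.51 to 8.01% and 8.20 to 8.29% in the same order of groups. N replicate 2 lay outside its group on all of these, with 31.5% for complex V, 24.7% for complex I and 6.17% for complex II.

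**Figure D1:**
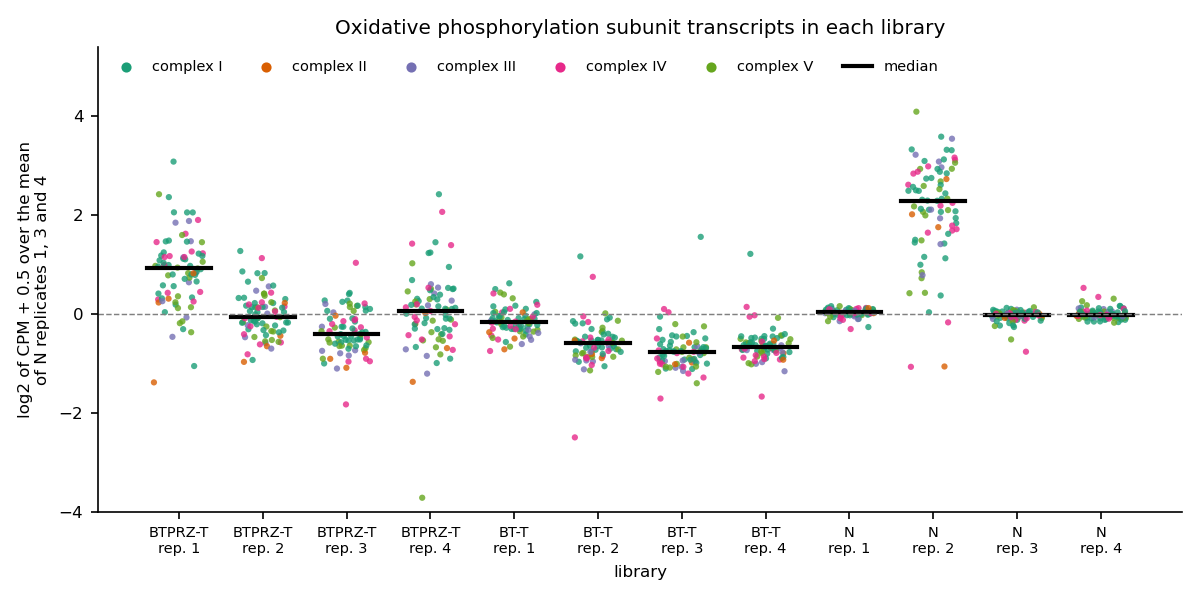
Each point is 1 of the 79 tested subunit genes in 1 library, as log2 of its CPM (plus 0.5) over the mean of N replicates 1, 3 and 4 (y axis), by library (x axis) and coloured by complex, with the median as a bar. The medians run from -0.41 to 0.92 in BTPRZ-T and from -0.77 to -0.17 in BT-T, and N replicate 2 stands at 2.29.

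In BT-T against N, most subunit transcripts of all 5 complexes had a negative log2 fold change, while few passed the test gene by gene. Of the 79, 76 had a negative log2 fold change, with a median of -1.57 over all libraries and -0.55 without N replicate 2, where the medians of all tested genes were -0.10 and -0.03. The plot of the genes by library shows the same shift in single libraries: the median gene stood at -0.77 to -0.17 log2 units from N replicates 1, 3 and 4 in the 4 BT-T libraries. In 49 of the 79 genes every BT-T library lay below every N library, where 9.02% of all tested genes did so. These were 19 of 36 in complex I, 2 of 4 in complex II, 7 of 8 in complex III, 10 of 14 in complex IV and 11 of 17 in complex V. No subunit gene had every BT-T library above every N library, where 13.4% of all genes did. Against N replicates 1, 3 and 4 alone, 50 lay below and 1, Ndufa4l2, above, where 19.9% and 18.5% of all genes did.

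Single genes passed the edgeR quasi-likelihood test (Benjamini-Hochberg adjusted p under 0.05 over all tested genes) less often. With all libraries 6 of the 79 were called lower and 0 higher, where 2.9% of all tested genes were called lower and 5.67% higher. At an unadjusted p under 0.05, 72 were lower and 0 higher, where 12.6% of all tested genes were lower and 11.5% higher. DESeq2 gave an adjusted p to only 45 of the 79, but to 14331 of the 14860 tested genes. It called 31 of these 45 and 16.7% of these 14331, so the 45 are a selected part of the 79. Without N replicate 2 all 79 had an adjusted p, and DESeq2 called 20, where it called 19.9% of all genes. In edgeR without N replicate 2, 9 were called lower and 0 higher, where 5.7% of all genes were called lower and 7.79% higher. In that fit 31 were lower and 1 higher at an unadjusted p under 0.05, where 12.4% and 13.6% of all genes were. All 9 lay among the 26 genes with the longest transcripts (1110 to 3171 nt). The median log2 fold change without N replicate 2 was -0.51 over the 26 shortest, -0.57 over the 27 of middle length and -0.59 over the 26 longest. Without N replicate 2 and BTPRZ-T replicate 1, 30 were called lower and 0 higher, where 6.89% and 9.77% of all genes were.

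In complex I, the clearest of these genes was Ndufs1 (chr1:63143596-63176833, minus strand, GRCm38), which encodes the large iron-sulfur subunit of the NADH-oxidising arm. In BT-T it stood at 95.7, 68.0, 74.7 and 83.0 CPM, against 149, 145, 138 and 139 CPM in N. N replicate 2 was not apart for this gene, and the groups did not overlap. The log2 fold change was -0.83 ± 0.17 (SE, n = 4 against 4; edgeR adjusted p = 0.0102). It was not called without BT-T replicate 2 (edgeR adjusted p = 0.0568) and kept its direction in every leave-one-out fit. Ndufv1, the subunit that binds NADH, stood at 99.4, 78.5, 80.2 and 79.1 CPM in BT-T, against 123, 274, 130.2 and 115 CPM in N, and was called only without N replicate 2 (-0.54 ± 0.16, edgeR adjusted p = 0.0418).

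In complex II, whose 4 subunits are all nuclear, Sdha (chr13:74322254-74350280, minus strand) ran against N replicate 2. It stood at 239, 211, 208 and 244 CPM in BT-T, against 400.1, 188, 396 and 382 CPM in N. The groups overlapped through N replicate 2 alone, and the edgeR adjusted p was 0.174 with all libraries and 0.00554 without that library (log2 fold change -0.80 ± 0.16). Sdhb, the iron-sulfur subunit, stood at 116, 93.3, 80.8 and 86.1 CPM in BT-T and at 166, 665, 159.9 and 167 CPM in N, with no overlap between BT-T and N (edgeR adjusted p = 0.0529 with all libraries and 0.0564 without N replicate 2). Sdhc and Sdhd, the membrane anchors, had log2 fold changes without N replicate 2 of -0.74 ± 0.24 and -0.38 ± 0.23 and were not called.

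In complex III, 2 genes were called. Uqcrfs1, the Rieske iron-sulfur protein, stood at 93.4, 65.3, 63.9 and 63.6 CPM in BT-T and at 138, 381, 146 and 144 CPM in N. Its log2 fold change was -1.50 ± 0.38 (edgeR adjusted p = 0.0284) and -1.0 ± 0.26 without N replicate 2 (adjusted p = 0.0234). Uqcrc1, a core protein (chr9:108936633-108949623, plus strand), stood at 258, 198, 195 and 209.6 CPM in BT-T, against 353, 581, 337 and 321 CPM in N (-0.89 ± 0.24, edgeR adjusted p = 0.0403). The libraries of both groups did not overlap for either gene. Leaving out 1 library ended the call of Uqcrfs1 for BT-T replicates 2, 3 and 4. It ended that of Uqcrc1 for each BT-T library, for BTPRZ-T replicates 2 and 3 and for N replicates 1 and 3, with adjusted p up to 0.138.

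In complex IV, Cox5b and Cox6a1, both structural subunits, stood below every N library in every BT-T library without passing the test. Cox5b stood at 118, 88.4, 65.1 and 83.9 CPM in BT-T, against 157, 729.6, 162 and 159.8 CPM in N (edgeR adjusted p = 0.0521 with all libraries and 0.0608 without N replicate 2). Cox6a1 stood at 273, 191, 169 and 215 CPM in BT-T, against 368, 1350.3, 395 and 409.6 CPM in N (edgeR adjusted p = 0.0526 and 0.0659). The one complex IV gene called with all libraries, Cox7a1, is taken up with the isoforms below.

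In complex V, 4 genes were called without N replicate 2: Atp5a1, Atp5b, Atp5d and Atp5g1, which is described with the isoforms below. Atp5a1, the alpha subunit, stood at 1070.2, 862, 865 and 996 CPM in BT-T, against 1560.3, 2016, 1493 and 1443 CPM in N (-0.66 ± 0.17 without N replicate 2, edgeR adjusted p = 0.0205; 0.0565 with all libraries). Atp5b was called as well (-0.62 ± 0.19, edgeR adjusted p = 0.0473 without N replicate 2, and 0.0737 with all libraries); it was singled out after its values were seen. Atp5d, the delta subunit of the central stalk, stood at 235, 175, 175 and 209 CPM in BT-T, against 318, 533, 324 and 327 CPM in N, and was called with all libraries (-0.92 ± 0.25, edgeR adjusted p = 0.0411) and without N replicate 2 (-0.70 ± 0.19, adjusted p = 0.0281). Its call was lost in 7 of the 12 leave-one-out fits, those without any 1 of the BT-T libraries, BTPRZ-T replicate 2, N replicate 1 or N replicate 3 (adjusted p up to 0.144).

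**Figure D2:**
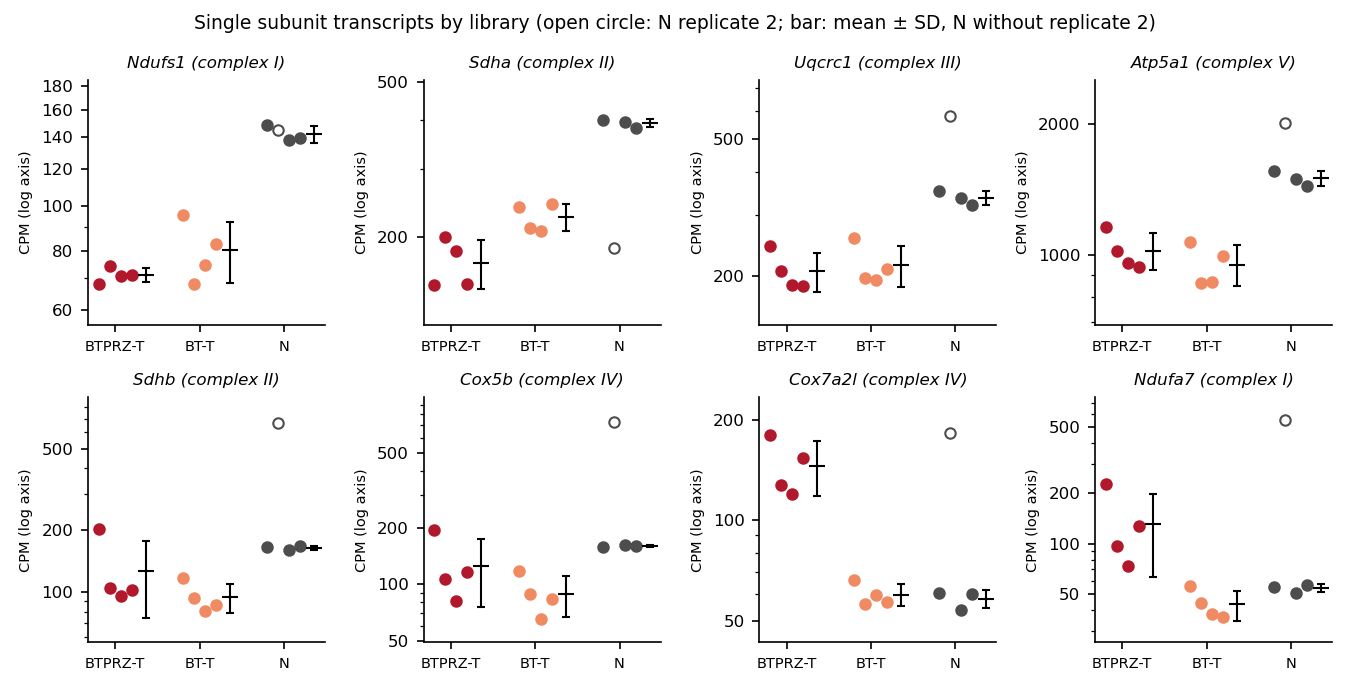
CPM on a log axis (y) of 8 subunit genes in the 4 BTPRZ-T, 4 BT-T and 4 N libraries (x), with N replicate 2 as an open circle and the mean ± SD as a bar (N without replicate 2, n = 3). Ndufs1 stands at 68.0 to 95.7 CPM over the 8 tumour libraries and at 138 to 149 CPM in N, while Cox7a2l spans 119.6 to 180.0 CPM in BTPRZ-T, above the 56.2 to 66.2 CPM of BT-T.

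In BTPRZ-T against N, the few genes called lower with all libraries or without N replicate 2 alone had long transcripts. The direction of the median gene turned on N replicate 2. The 79 had a median log2 fold change of -0.84 over all 12 libraries. It was 0.24 without N replicate 2 and -0.07 without N replicate 2 and BTPRZ-T replicate 1, where the medians of all tested genes were -0.10, 0.01 and 0.00. BTPRZ-T replicate 1 had the highest median of the tumour libraries, 0.92 log2 units above N replicates 1, 3 and 4. The others stood at -0.06, -0.41 and 0.06. With all libraries 3 genes were called lower and 0 higher, where 6.18% of all tested genes were lower and 5.66% higher, and at an unadjusted p under 0.05, 17 were lower and 2 higher, where 14.1% and 11.4% of all genes were. DESeq2 called 9 of the 45 with an adjusted p, where it called 21.3% of all such genes. Without N replicate 2 it called 16 of all 79, where it called 40.3% of all genes. In edgeR without N replicate 2, 4 were lower and 7 higher, where 15.7% and 16.6% of all genes were. Without both libraries, 15 were lower and 5 higher, against 14.9% and 15.8% of all genes. Those 15 were 2 of the 26 shortest, 2 of the 27 of middle length and 11 of the 26 longest. The groups did not overlap for 6 genes, all lower in BTPRZ-T, where 7.64% of all genes were lower and 6.88% higher without overlap. Against N replicates 1, 3 and 4 alone, 7 lay below and 8 above, where 19.7% and 18.5% of all genes did.

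The 3 genes called with all libraries were Ndufs1, Sdha and Uqcrc1, all among the 26 with the longest transcripts. Ndufs1 stood at 68.1, 74.2, 70.7 and 71.1 CPM in BTPRZ-T, against 149, 145, 138 and 139 CPM in N (-1.01 ± 0.17, edgeR adjusted p = 0.00293), and was called in every leave-one-out fit. Sdha stood at 150.1, 200.3, 184 and 151 CPM in BTPRZ-T, against 400.1, 188, 396 and 382 CPM in N (-0.99 ± 0.26, edgeR adjusted p = 0.0257). N replicate 2 again lay among the tumour values, and without it the log2 fold change was -1.20 ± 0.16 (edgeR adjusted p = 0.000329). Uqcrc1 stood at 244, 207, 188 and 187 CPM in BTPRZ-T, against 353, 581, 337 and 321 CPM in N (-0.95 ± 0.24, edgeR adjusted p = 0.0248). Single libraries decided 2 of these calls. Sdha was not called without BTPRZ-T replicate 1 or 4, or N replicate 1, 3 or 4 (adjusted p up to 0.0771), and Uqcrc1 was not called without BTPRZ-T replicate 2, 3 or 4 (up to 0.0649).

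Atp5a1 joined them without N replicate 2, with 1159.6, 1021, 959 and 939 CPM in BTPRZ-T, against 1560.3, 2016, 1493 and 1443 CPM in N (-0.56 ± 0.17, edgeR adjusted p = 0.0246). The 7 genes called higher without N replicate 2 were Cox7a2l, Ndufa7, Ndufa4l2, Ndufa2, Ndufs4, Ndufb4 and Atp5e, of which N replicate 2 lay above every BTPRZ-T library in all but Ndufa4l2. Ndufa7, an accessory subunit of complex I, stood at 227, 96.4, 73.0 and 128 CPM in BTPRZ-T, against 55.2, 549, 50.7 and 56.8 CPM in N (1.27 ± 0.33 without N replicate 2, edgeR adjusted p = 0.0130; -0.44 ± 0.71 and 0.774 with all libraries). Every BTPRZ-T library lay above N replicates 1, 3 and 4 and below N replicate 2. Atp5e, the epsilon subunit of the stalk of the ATP synthase, stood at 278, 85.5, 53.7 and 105 CPM in BTPRZ-T, against 57.5, 886, 48.8 and 48.2 CPM in N, so that BTPRZ-T replicate 3 lay within the N values. Across the 79 genes the log2 fold change without N replicate 2 had a Pearson correlation with log2 transcript length of -0.49, beside -0.27 across the 14939 tested genes with a length. These are descriptions across genes of the same libraries.

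BTPRZ-T against BT-T asks what the further losses of Rnf43, Znrf3 and p16 Ink4a go with. The log2 fold change was positive in 76 of 79 subunit genes, with a median log2 fold change of 0.77 (all tested genes -0.03), 0.41 without N replicate 2 and BTPRZ-T replicate 1, but edgeR over all 12 libraries called 0 of them, where 0.155% of all tested genes were called higher and 0.599% lower (0.754% in all). At an unadjusted p under 0.05, 5 were higher and 0 lower, where 7.12% of all genes were higher and 10.1% lower. DESeq2 called 1 of the 45 with an adjusted p, Cox7a2l, where it called 8.49% of all such genes. N replicate 2 enters this comparison through the scaling and the shared estimate of spread. Without it DESeq2 called 44 of all 79, where it called 27.2% of all genes. In edgeR without that library, 24 were called higher and 0 lower, where 9.81% of all genes were higher and 8.23% lower. Without BTPRZ-T replicate 1 as well, 16 of these 24 were called and no others, where 6.51% of all genes were higher and 7.47% lower. A fit of the BTPRZ-T and BT-T libraries alone, with no N library, called 9 of the 79, counting either direction. It called 10.8% of all genes. The count of 24 thus depended on keeping the remaining N libraries in the fit. Every BTPRZ-T library lay above every BT-T library in 14 of the 79 genes, where 11.5% of all tested genes did so, and below in 1, Sdha, where 12.7% did.

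The 24 genes called higher without N replicate 2 were 12 of complex I, 1 of complex II, 4 of complex III, 4 of complex IV and 3 of complex V. By length they were 10 of the 26 shortest, 10 of the 27 of middle length and 4 of the 26 longest, with median log2 fold changes of 0.95, 0.87 and 0.39 over each of these sets. Ribosomal protein transcripts moved with them: 72 of 75 tested cytosolic ribosomal protein genes (median 1.34) and 41 of 77 mitochondrial ribosomal protein genes (median 0.86) were called higher in the same fit. With the length trend also removed, 71 (median 0.92) and 43 (median 0.65) were called higher, where 22.4% of all genes were (median 0.28). The part of transcript length and of library composition in these rises was not tested beyond that fit, given for the subunit genes below. Across the 79 genes the Pearson correlation with log2 transcript length was -0.62, beside -0.34 across all tested genes with a length.

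Cox7a2l (chr17:83501918-83517330, minus strand), the supercomplex assembly factor, had the lowest p among the 79 in the fit without N replicate 2. It stood at 180.0, 128, 119.6 and 153 CPM in BTPRZ-T, against 66.2, 56.2, 59.5 and 57.0 CPM in BT-T. The N libraries had 60.6, 183, 53.9 and 59.9 CPM, so BT-T lay with N replicates 1, 3 and 4, and every BTPRZ-T library lay above all BT-T libraries. The log2 fold change against BT-T was 1.28 ± 0.36 with all libraries (edgeR adjusted p = 0.111), and 1.28 ± 0.15 without N replicate 2 (adjusted p = 0.00141). Against N it was 1.32 ± 0.17 without N replicate 2 (edgeR adjusted p = 0.000289) and 0.70 ± 0.36 with all libraries (adjusted p = 0.250). As a share of the summed CPM of the 84 genes, which sets it against subunit transcripts of the same library, it came to 1.09, 1.32, 1.51 and 1.58% in BTPRZ-T, 0.711, 0.817, 0.923 and 0.800% in BT-T and 0.519, 0.406, 0.474 and 0.539% in N. The 3 groups did not overlap on this share, N replicate 2 included. Of the 79, 20 were higher and 7 lower on it without overlap in BTPRZ-T against BT-T. Against N, 8 were higher and 5 lower in BTPRZ-T, and 3 higher and 5 lower in BT-T. The share is defined within the 84 genes, so these counts have no rate over all genes beside them. Shares in a library have a fixed sum, so a rise in some genes lowers others. The part of transcript length in these counts was not tested. With the length trend removed and N replicate 2 left out, the log2 fold change of Cox7a2l was 0.99 against BT-T, where the median of all genes shifted to 0.28. The window printed above, which held no NRF1 match, precedes the RefSeq start and lies inside the GENCODE span just given.

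Small subunits of complexes III and I were among the others called. Uqcrh, the hinge protein, stood at 573, 229, 179 and 236 CPM in BTPRZ-T, against 154, 107, 98.7 and 99.9 CPM in BT-T (1.40 ± 0.33 without N replicate 2, edgeR adjusted p = 0.0158; 0.366 with all libraries). Uqcr10 had 347, 133, 98.2 and 139 CPM in BTPRZ-T, against 86.3, 60.9, 49.0 and 57.9 CPM in BT-T (1.5 ± 0.35, edgeR adjusted p = 0.0153 without N replicate 2). In both genes BTPRZ-T replicate 1 was the highest library, and the remaining BTPRZ-T libraries still lay above all BT-T libraries. Ndufa2, an accessory subunit of complex I, had a log2 fold change of 1.63 ± 0.35 and Cox8a, a small subunit of complex IV, one of 0.86 ± 0.21 (edgeR adjusted p = 0.0127 and 0.0207 without N replicate 2). Atp5j2, a membrane subunit of the ATP synthase, and Sdhd had log2 fold changes of 1.39 ± 0.38 and 0.68 ± 0.22 (edgeR adjusted p = 0.0278 and 0.0473 without N replicate 2); the call of Sdhd was lost without BTPRZ-T replicate 1 as well (0.104). Sdha ran the other way, with 150.1 to 200.3 CPM in BTPRZ-T, below the 208 to 244 CPM of BT-T (-0.39 ± 0.15, edgeR adjusted p = 0.0785 without N replicate 2).

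**Figure D3:**
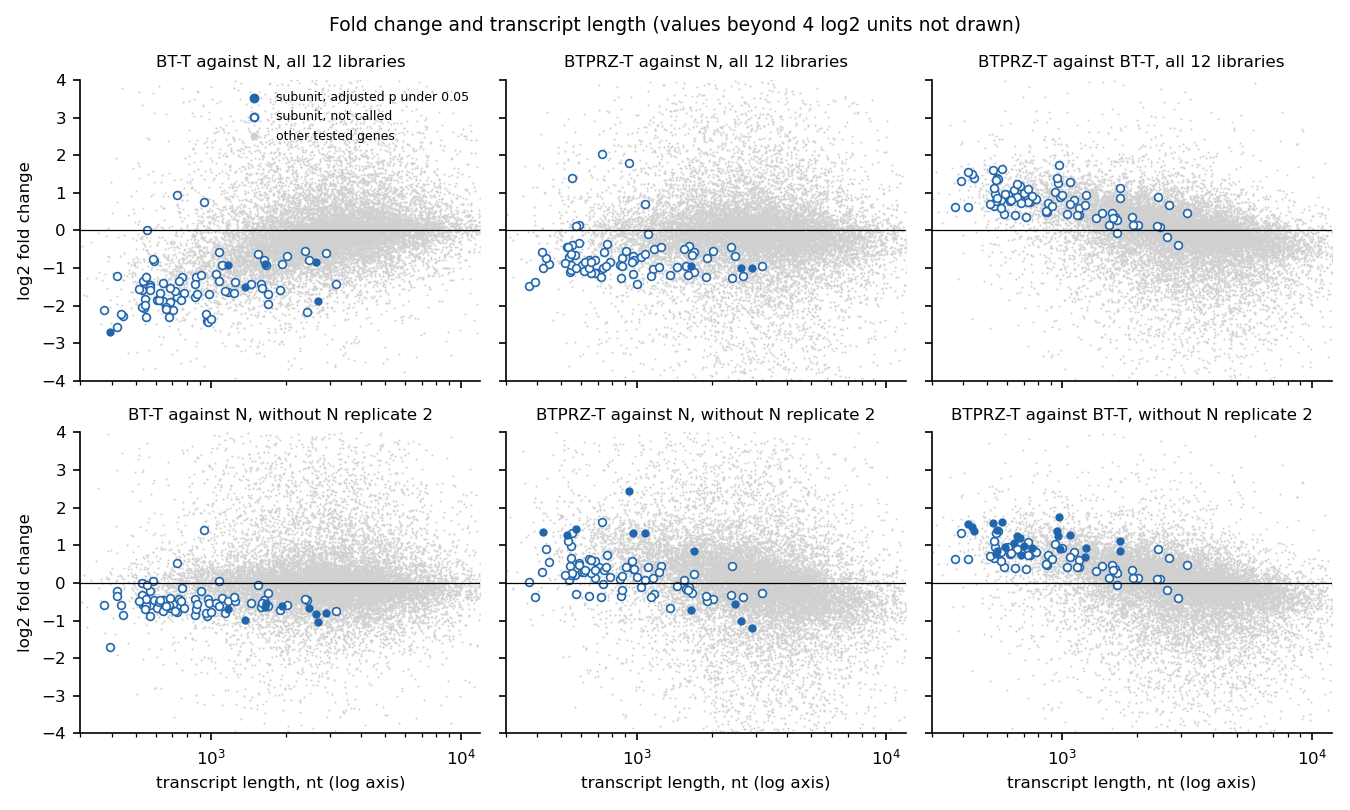
Log2 fold change (y axis) against transcript length in nt on a log axis (x axis) for the 79 subunit genes (blue, filled where the adjusted p was under 0.05) over all tested genes with a length (grey), in the 3 comparisons with all 12 libraries (top) and without N replicate 2 (bottom). Without N replicate 2 the called genes of BT-T against N are 9 and long, while 24 are called higher in BTPRZ-T against BT-T, 4 of them among the 26 longest.

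To set each gene against others of its length, the trend of each library on transcript length was removed. This shifted the median of all tested genes to -0.29 in BT-T against N, 0.00 in BTPRZ-T against N and 0.27 in BTPRZ-T against BT-T, and without N replicate 2 to -0.17, 0.15 and 0.28. The medians of the 79 were -1.03, -0.73 and 0.31 with all libraries and -0.79, -0.46 and 0.33 without N replicate 2. Genes were still tested against a log2 fold change of 0 and not against these shifted medians of all genes. Before the trend was removed, 6 and 9 of the 79 were called lower in BT-T against N with all libraries and without N replicate 2. Of all genes, 2.9% and 5.7% were. In BT-T against N, 63 were then called lower with all libraries and 61 without N replicate 2, where 9.94% and 12.7% of all genes were, and 0 were higher in both fits, where 6.06% and 7.6% were. In BTPRZ-T against N, 38 and 37 were lower and 2 and 3 higher, where 8.18% and 12.2% of all genes were lower and 8.52% and 19.5% higher. Of the 26 shortest, 27 middle and 26 longest, 15, 11 and 12 were lower with all libraries. Without N replicate 2 these counts were 13, 10 and 14. In BTPRZ-T against BT-T, 1 and 22 were called higher and 0 lower in both fits, where 1.77% and 22.4% of all genes were higher and 0.745% and 4.51% lower.

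Alternative subunit genes were compared as ratios within a library, which no scaling of the library changes apart from a pseudocount of 0.5 CPM. Of 9 pairs, 6 had both genes tested, which gave 18 tests over the 3 comparisons. With 4 libraries against 4 the exact two-sided permutation test cannot go below p = 0.0286, and none of the 18 passed adjustment. In Atp5g2 over Atp5g3, however, the groups did not overlap. Atp5g2 stood at 27.2, 32.9, 34.4 and 28.3% of Atp5g3 in BTPRZ-T, at 27.4, 30.7, 29.2 and 27.3% in BT-T and at 17.0, 15.6, 16.3 and 16.6% in N. N replicate 2 lay with its group on this ratio. The difference in mean log2 ratio was 0.90 for BTPRZ-T against N and 0.81 for BT-T against N (exact permutation p = 0.0286 each, the smallest possible, adjusted p = 0.129), and 0.09 for BTPRZ-T against BT-T (exact permutation p = 0.371).

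The levels behind this ratio were as follows. Atp5g3, the most abundant of them, stood at 310.0, 178, 140.2 and 184 CPM in BTPRZ-T, 211, 144, 126 and 152 CPM in BT-T and 264, 1130.4, 254 and 272 CPM in N. Atp5g2 (chr15:102662864-102672352, minus strand) stood at 84.3, 58.4, 48.3 and 52.2 CPM in BTPRZ-T, 57.7, 44.2, 36.7 and 41.4 CPM in BT-T and 44.8, 176, 41.3 and 45.2 CPM in N. Outside N replicate 2, Atp5g3 was lower in every BT-T library than in N, while Atp5g2 overlapped. Atp5g1 was called lower in BT-T, with 59.5, 42.5, 35.4 and 46.4 CPM, against 96.1, 397, 104 and 83.5 CPM in N (-1.89 ± 0.47, edgeR adjusted p = 0.0284, and -1.04 ± 0.24 with adjusted p = 0.0128 without N replicate 2), a call lost without BT-T replicate 2, 3 or 4. Its ratio to Atp5g3 overlapped between all groups, at 29.0 to 43.0% in BTPRZ-T, 28.2 to 30.6% in BT-T and 30.7 to 40.9% in N. Of the 3 windows printed above, that of Atp5g2 alone held an NRF1 match.

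Cox7a1, the isoform of heart and skeletal muscle, was a minor transcript beside Cox7a2, its ubiquitous counterpart. It stood at 4.29, 0.925, 1.96 and 2.03 CPM in BT-T, against 6.91, 37.7, 7.56 and 8.17 CPM in N, and was called lower with all libraries (-2.70 ± 0.73, edgeR adjusted p = 0.0396) and not without N replicate 2 (-1.71 ± 0.59, adjusted p = 0.0799). Its ratio to Cox7a2 was 4.82, 4.73, 2.57 and 6.0% in BTPRZ-T, 6.05, 1.98, 4.65 and 4.45% in BT-T and 8.16, 6.0, 10.2 and 10.5% in N, with a difference in mean log2 ratio of -0.87 for BTPRZ-T against N and -0.82 for BT-T against N (exact permutation p = 0.0571 each). Without N replicate 2 the differences were -1.06 and -1.01 and the groups did not overlap (exact permutation p = 0.0286 each, the smallest possible, adjusted p = 0.129). Smooth muscle markers summed to 647 to 5370.5 CPM in BTPRZ-T, 4279.6 to 7011 CPM in BT-T, with 8939.5 to 20463 CPM in N, with 0 of 12 at no read in any group, and 9 of 12 were called lower in BTPRZ-T and 1 in BT-T, where Cox7a1 was called, with all libraries. In the fit without N replicate 2 these counts were 9 and 4, where 15.7% and 5.7% of all genes were lower. Striated muscle markers summed to 12.96 to 29.0 CPM in BTPRZ-T, 27.3 to 42.9 CPM in BT-T, with 28.1 to 65.5 CPM in N. Of the 6 tested with all libraries, 1 was called higher and 2 lower in BTPRZ-T and 1 higher and 1 lower in BT-T, and 4 of 14 had no read in BTPRZ-T, 1 in BT-T and 4 in N. With all libraries 6.18% of all tested genes were called lower and 5.66% higher in BTPRZ-T, and 2.9% and 5.67% in BT-T. The part of these muscle markers in the result was not tested.

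Ndufa4l2, known as a hypoxia-induced relative of Ndufa4, was low throughout. It stood at 16.8, 4.45, 1.93 and 10.5 CPM in BTPRZ-T, 2.65, 4.09, 5.54 and 4.26 CPM in BT-T and 1.78, 5.08, 1.24 and 1.62 CPM in N. Ndufa4l2 was called in BTPRZ-T against N without N replicate 2 (2.44 ± 0.65, edgeR adjusted p = 0.0156) and not with all libraries (1.79 ± 0.66, adjusted p = 0.106). Its ratio to Ndufa4 overlapped between N and either tumour group (exact permutation p = 0.0571 each, adjusted p = 0.129). Without N replicate 2 the groups overlapped as well (exact permutation p = 0.0857 each, adjusted p = 0.171). Cox4i2 (225 reads over all libraries) and Cox6b2 (702 reads), isoforms of Cox4i1 and Cox6b1, were not called in any comparison. Cox6b2 stood at 5.42, 2.82, 1.76 and 9.82 CPM in BTPRZ-T, against 2.79, 1.70, 1.25 and 1.87 CPM in BT-T. Atp5s and Atp5sl were not called either; Atp5s stood at 0.0873 CPM in BTPRZ-T replicate 4 and at 8.15 to 12.8 CPM in the other BTPRZ-T libraries.

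**Figure D4:**
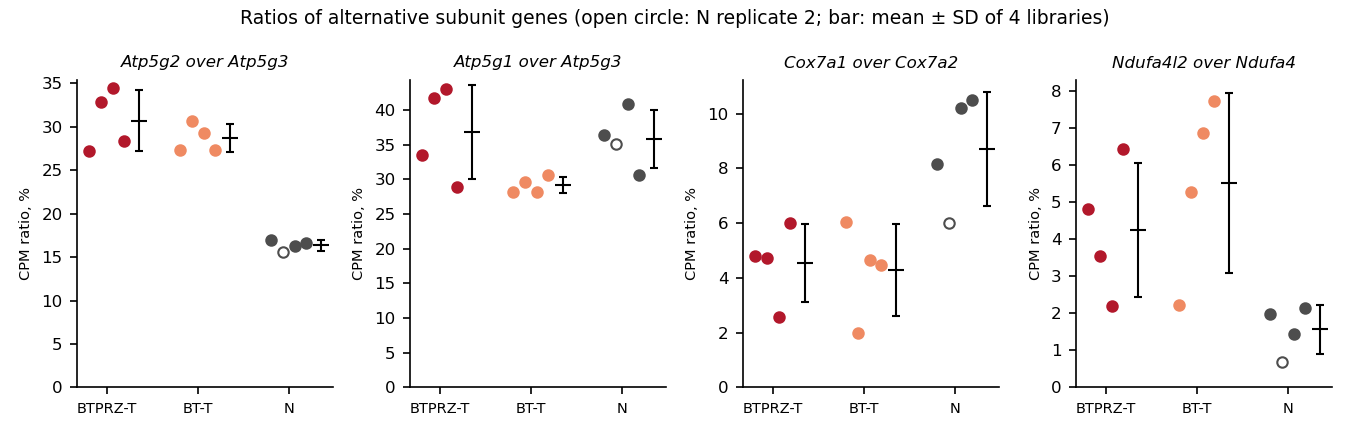
Ratios of CPM in percent (y axis, from 0) for 4 pairs of alternative subunit genes in the 4 BTPRZ-T, 4 BT-T and 4 N libraries (x axis), with N replicate 2 as an open circle and the mean ± SD of 4 libraries as a bar. Atp5g2 over Atp5g3 stands at 27.2 to 34.4% in all tumour libraries and at 15.6 to 17.0% in N, with no overlap.

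Genes of other mitochondrial functions were read in the same fits, from lists chosen for this pathway. Against N with all libraries, 6.18% of all tested genes were called lower and 5.66% higher in BTPRZ-T, and 2.9% and 5.67% in BT-T. Without N replicate 2 these shares were 15.7% and 16.6% in BTPRZ-T and 5.7% and 7.79% in BT-T. Of 17 citric acid cycle genes, 5 were called lower in BTPRZ-T and 4 in BT-T against N with all libraries, and 7 and 8 without N replicate 2; 0 were higher in these fits. Citrate synthase, Cs, averaged 351 ± 41.5 CPM in BTPRZ-T, 448 ± 76.2 CPM in BT-T and 824 ± 209.6 CPM in N (SD, n = 4; log2 fold change against N -1.23 ± 0.26 in BTPRZ-T and -0.88 ± 0.25 in BT-T, edgeR adjusted p = 0.00883 and 0.0501). Of 19 genes for cytochrome c, coenzyme Q and their partners, 5 in BTPRZ-T and 6 in BT-T were called lower with all libraries, and 6 and 6 without N replicate 2. Cyc1, the cytochrome of complex III, averaged 168 ± 43.8 CPM in BTPRZ-T, 125 ± 25.6 CPM in BT-T and 423 ± 319.7 CPM in N, and was called in BT-T (-1.76 ± 0.42, edgeR adjusted p = 0.0218, and -1.08 ± 0.22 with adjusted p = 0.0072 without N replicate 2).

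Assembly factors were counted in the same way, beside the shares of all genes just given. With all libraries 1 of 15 complex I factors and 2 of 30 tested factors of the other complexes were lower in BTPRZ-T, and 2 and 2 in BT-T, and 0 were higher. In the fit without N replicate 2, 1 of 15 was higher and 1 lower in BTPRZ-T and 2 lower in BT-T, while 6 of 30 were higher and 4 lower in BTPRZ-T and 2 lower in BT-T. Of all tested genes, 16.6% were higher and 15.7% lower in BTPRZ-T in that fit, and 7.79% and 5.7% in BT-T. In BTPRZ-T against BT-T that fit called 1 and 8 higher and 0 lower, where 9.81% of all genes were higher and 8.23% lower. Cox10 and Sco1, which serve the heme and copper centres of complex IV, were lower in both groups. Cox10 averaged 27.3 ± 1.80 CPM in BTPRZ-T, 29.0 ± 4.26 CPM in BT-T and 70.7 ± 14.6 CPM in N (-1.37 ± 0.21 and -1.29 ± 0.21, edgeR adjusted p = 0.00159 and 0.00276). Of 18 regulators of mitochondrial biogenesis, 3 and 2 were called lower with all libraries and 5 and 5 without N replicate 2, and 0 higher. Ppara, a nuclear receptor that drives fatty acid oxidation, averaged 5.03 ± 1.24 CPM in BTPRZ-T, 11.6 ± 2.49 CPM in BT-T and 42.5 ± 31.8 CPM in N, where N replicate 2 had 10.2 CPM (-3.08 ± 0.54 with edgeR adjusted p = 0.00329 in BTPRZ-T, and -1.88 ± 0.51 with 0.0396 in BT-T). Of 19 genes for carriers and cristae of the inner membrane, 4 in BTPRZ-T and 5 in BT-T were called lower and 0 higher with all libraries. With N replicate 2 left out, 7 were lower and 3 higher in BTPRZ-T and 7 lower and 0 higher in BT-T. Cytosolic ribosomal protein genes depended on N replicate 2 in BTPRZ-T: 1 of 75 was called higher and 1 lower with all libraries, and 71 and 1 without it.

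**Figure D5:**
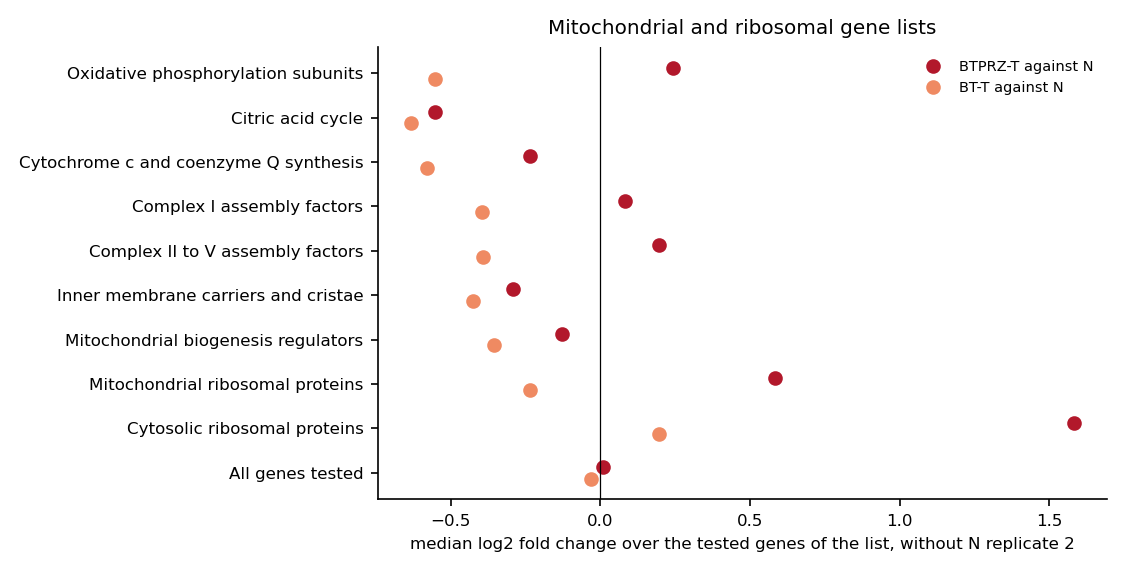
Median log2 fold change (x axis) over the tested genes of each list (y axis) in BTPRZ-T against N and BT-T against N, without N replicate 2. Subunit genes stand at 0.24 in BTPRZ-T and -0.55 in BT-T, citric acid cycle genes at -0.55 and -0.63 and cytosolic ribosomal protein genes at 1.58 and 0.20.

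Markers of other cell types and states differed between the groups beside these results. Against N with all libraries, 6.18% of all tested genes were called lower and 5.66% higher in BTPRZ-T, and 2.9% and 5.67% in BT-T. Markers of absorptive colonocytes summed to 929 to 3616 CPM in BTPRZ-T, 1619.96 to 3758 CPM in BT-T, with 6219 to 12396 CPM in N, and 11 of 16 were called lower in either tumour group with all libraries. Fibroblast markers summed to 2134 to 9589.7 CPM in BTPRZ-T, 9395 to 18366 CPM in BT-T, with 1223 to 2071 CPM in N (6 and 10 of 12 called higher), and macrophage markers to 341 to 2835, 1059 to 1958 and 112 to 426 CPM (6 and 7 of 11). Markers of epithelium as a whole overlapped, at 8109.5 to 16844 CPM in BTPRZ-T, 9274 to 11215 CPM in BT-T, with 10871 to 13263 CPM in N. None of these 4 lists had a marker without reads in any group. Their part in the subunit levels was not tested.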

How the data were processed

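Read counts per gene were deposited for 12 libraries. Per the labels' protocols, they came from a stranded poly(A) kit read as single 100-base reads. Per the submitters' processing notes, the authors used bcl2fastq 2.20, STAR 2.4.2a, HTSeq, edgeR 3.16.5 and limma with mm10. No source used here names the gene annotation. The deposited counts hold 0 multimapping reads, and the column of the strand with more gene reads was used, with 15732004 to 26052772 reads in genes per library. Standard errors were derived from the edgeR tests and include the spread between libraries. Each is the absolute log2 fold change divided by the square root of the quasi-likelihood F statistic.

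Counts were tested in R 4.3.3 with edgeR 4.0.16 (filterByExpr by group, TMM scaling, glmQLFit with robust set, quasi-likelihood test), with 1 mean per group over all 12 libraries and Benjamini-Hochberg adjustment over all tested genes (threshold 0.05). CPM values use TMM-scaled library sizes. Transcript lengths are medians over the APPRIS-principal transcripts of GENCODE M21. The length trend was a spline with 5 degrees of freedom per library. DESeq2 1.42.0, limma 3.58.1 with voom, other scalings and filters, the 2 compared groups alone, the unstranded column and left-out libraries were alternatives.

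Members and lists were chosen with earlier results of these data known. Named were the genes called with all libraries, the 2 of lowest p per complex and comparison without N replicate 2, the isoform pairs and genes matched by name alone, complex II, and up to 2 genes per related list. Atp5b, Ndufs4 and Ndufb4 fall outside this rule and were named after their values were seen. A further gene chosen by this rule is not reported here.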

Additional observations from a re-analysis of the deposited data

Results flagged for a closer look

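N replicate 2 stood far from the other 3 N libraries in the summed CPM of every complex, with a gap to its nearest neighbour that took up nearly the whole range of the group (past Dixon's 95% limit). It summed to 11135 CPM for complex I, 2780.67 CPM for complex II, 6921.62 CPM for complex III, 10048.6 CPM for complex IV and 14195.7 CPM for complex V. Gene by gene, it lay apart in the same way in 68 of the 79 tested genes. In the tumour groups, BTPRZ-T replicate 1 lay apart for 2 genes, BTPRZ-T replicate 4 for 1, BT-T replicate 1 for 7 and BT-T replicate 2 for 1. Chance alone flags about 1 in 20 groups. The log2 ratio of Cox6b2 over Cox6b1 in BTPRZ-T replicate 4 was -4.09, apart from the other BTPRZ-T libraries.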

How the results depend on the processing

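Main counts of called genes, of 79, were 6 in BT-T against N, 3 in BTPRZ-T against N and 0 in BTPRZ-T against BT-T, where 8.57%, 11.8% and 0.754% of all tested genes were called. In that order, DESeq2 called 31, 9 and 1 of the 45 with an adjusted p (16.7%, 21.3% and 8.49% of all genes), the 2 groups alone 2, 1 and 9 (9.65%, 4.59% and 10.8%), the fit without the 3 libraries of fewest detected genes 39, 16 and 12 (28.7%, 34.9% and 24.5%), and the fit with the length trend removed 63, 40 and 1 (16%, 16.7% and 2.51%). Leaving out 1 library gave 0 to 17, 1 to 11 and 0 to 24, while the calls over all genes ran from 624 to 2030, from 1076 to 4855 and from 0 to 2714. Alternatives chosen after seeing the data were the length trend removed without N replicate 2 (61, 40 and 22; 20.3%, 31.7% and 26.9% of all genes), N replicate 2 and BTPRZ-T replicate 1 left out together (30, 20 and 16; 16.7%, 30.7% and 14%), and DESeq2 without N replicate 2 (20, 16 and 44; 19.9%, 40.3% and 27.2%). Median log2 fold changes ran from -1.79 to -0.55, from -1.16 to 0.24 and from 0.44 to 0.93 over the left-out libraries. Without the 3 libraries they were -0.49 in BT-T against N and 0.33 in BTPRZ-T against BT-T. With the length trend removed the last was 0.31, and 0.33 without N replicate 2. In BT-T against N the median was -0.51 without both libraries and -0.54 with DESeq2 without N replicate 2, which gave 0.24 in BTPRZ-T against N. Isoform tests at p under 0.05 numbered 2, 5 with a pseudocount of 0.1 and 2 to 6 over left-out libraries. The causes were not tested.

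The replicate block called 2, 1 and 0 genes, where 6.36%, 7.81% and 0.00673% of all genes were called. Deviations of same-numbered libraries correlated from -0.30 to 0.32, so the numbers were not taken as pairs.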
